A study of Rattus norvegicus with 35 samples.

Results

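The 8 genes examined here, Epcam, Krt7, Krt8, Krt18, Krt19, Sox9, Spp1 and Cdh1, are markers of bile duct cells and of epithelia in general, measured in the liver of rats that were fed a triazole fungicide. They were found by their gene symbol in the platform annotation of the array, and 7 of the 8 had a probe set, out of 14217 genes measured. Sox9, a transcription factor of bile duct cells, had no probe set under its symbol and has no value here. Cdh1 had 2 probe sets and the other 6 genes had 1 each. The probe set with the highest mean over all arrays stands for a gene.

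Wistar Han IGS rats received the compound in the feed from day 6 of gestation to postnatal day 92, and liver RNA was measured with 1 Affymetrix rat array per animal. The extraction protocol names testis, while the titles and the labelling protocol name liver. Animals received feed without a triazole (control, 7 arrays), myclobutanil at 500 ppm (5 arrays) or 2000 ppm (4 arrays), propiconazole at 500 ppm (3 arrays) or 2500 ppm (4 arrays), or triadimefon at 500 ppm (5 arrays) or 1800 ppm (4 arrays). The series lists 35 arrays as biological replicates, of which 3 (2 of propiconazole 500 ppm, 1 of myclobutanil 2000 ppm) were left out by the submitters and hold no values, so 32 were used. The sources used here give neither sex nor litter, and no group carries a genetic change by the labels.

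Bile ducts are lined by cholangiocytes, an epithelium that makes up a small share of liver cells, and the keratins encoded by Krt7 and Krt19 set these cells apart from hepatocytes. Hepatocytes make the keratin pair encoded by Krt8 and Krt18, which join into one filament, and carry E-cadherin, the adhesion protein encoded by Cdh1. Epcam encodes an adhesion protein of bile duct cells and of liver progenitor cells. Spp1 encodes osteopontin, a secreted protein made by bile duct cells and, in injured liver, also by macrophages and stellate cells. Triazole fungicides block a sterol demethylase of fungi and act on related enzymes and on nuclear receptors of the liver.

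The promoter windows of Epcam, Krt8 and Krt18 are printed because their group means were highest at triadimefon 1800 ppm and the RefSeq table (GRCr8) held their sequence. It also held that of Spp1, so 4 of the 8 genes matched. Each window runs 5′ to 3′ along the gene's own strand, from 250 bases before the transcription start to 50 after it. Capitals mark matches to TATAAA (the TATA box), GGGCGG (the GC box) or CACCTG (an E-box of Snail and Zeb repressors) on either strand. The windows lie at chr6:12649629-12649928 on the minus strand (Epcam), at chr7:135010290-135010589 on the minus strand (Krt8) and at chr7:135035918-135036217 on the plus strand (Krt18).
Epcam: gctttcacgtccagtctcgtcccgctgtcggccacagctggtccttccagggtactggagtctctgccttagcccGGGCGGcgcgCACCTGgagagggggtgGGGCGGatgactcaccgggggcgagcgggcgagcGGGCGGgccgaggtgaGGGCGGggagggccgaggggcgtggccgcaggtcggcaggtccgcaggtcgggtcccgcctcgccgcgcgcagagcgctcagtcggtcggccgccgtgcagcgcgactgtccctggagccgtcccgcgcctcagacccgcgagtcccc
Krt8: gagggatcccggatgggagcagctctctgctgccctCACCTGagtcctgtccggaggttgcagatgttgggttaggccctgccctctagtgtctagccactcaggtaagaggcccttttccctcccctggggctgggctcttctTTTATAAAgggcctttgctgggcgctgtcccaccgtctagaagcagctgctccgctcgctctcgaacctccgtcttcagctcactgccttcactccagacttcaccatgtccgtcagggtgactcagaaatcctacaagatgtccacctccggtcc
Krt18: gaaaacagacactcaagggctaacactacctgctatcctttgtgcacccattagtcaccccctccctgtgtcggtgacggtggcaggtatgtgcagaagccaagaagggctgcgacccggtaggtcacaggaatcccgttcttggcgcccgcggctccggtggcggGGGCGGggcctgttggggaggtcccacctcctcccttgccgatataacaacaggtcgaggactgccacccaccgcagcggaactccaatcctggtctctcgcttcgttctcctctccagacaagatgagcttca

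The Epcam window was 75.67% G or C, against a median of 51.67% over all 33469 windows in the table, and held 4 GC boxes and 1 E-box. The Krt8 window, 59.00% G or C, held 1 E-box and 2 TATAAA matches, 1 on each strand, that overlap each other. The Krt18 window, 60.33% G or C, held 1 GC box. Of all windows, 14.2% held TATAAA, 33.1% GGGCGG and 18.8% CACCTG. Neither ACAATGG (a SOX motif, in 3.90% of all windows) nor TGGGAA (an RBPJ motif, in 25.7%) was found in the windows of Epcam, Krt8, Krt18 or Spp1. A match describes letters in the window and not a bound site. Krt8 and Krt18 are neighbours on the chromosome, with 1 long noncoding RNA gene annotated between them.

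The deposited value is 1 score per probe set and array. The sources used here give neither its scale nor its log base or centring, so differences are given in score units and not as fold changes. The score of 1 probe set cannot be set against that of another as an amount of RNA, and the table holds no detection calls. A member was called where its adjusted p in limma (Benjamini-Hochberg over 31042 probe sets) was below 0.05, and ± after a difference is its standard error. Array medians ran from 0.00528 to 0.0585 and array standard deviations from 0.704 to 1.02. The 3′–5′ difference, the mean score difference between 3′ and 5′ probe sets of the GAPDH and β-actin controls, which grows as RNA breaks down or is copied incompletely, differed between groups. It averaged 1.30 ± 0.595 in controls and 1.49 ± 0.375 at triadimefon 1800 ppm, but 0.518 ± 0.0479 at triadimefon 500 ppm and 0.609 to 0.694 in the propiconazole groups and at myclobutanil 2000 ppm (SD). As a difference of scores, it also depends on the spread of scores within an array. Its largest value, 2.45 in replicate 1 of myclobutanil 500 ppm, came with the largest array standard deviation, 1.02. The parts of RNA state and of this spread in it were not tested. In 9 arrays (4 controls, 2 of myclobutanil 500 ppm and 3 of triadimefon 1800 ppm) the GAPDH difference was at least 0.965, and in the other 23 it was at most 0.729. Animal numbers in the titles fall below or above 3000; 3 controls and 3 of the 4 animals at triadimefon 1800 ppm lie above.

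At triadimefon 1800 ppm Epcam rose and was the 1 member of 7 called against the controls, where 1.17% of all probe sets were called. The control scores of Epcam were 0.409, 0.477, 0.294, 0.342, 0.624, 0.596 and 0.298 (mean 0.434 ± 0.136, SD, n = 7). The 4 arrays of triadimefon 1800 ppm read 0.798, 1.17, 1.28 and 1.37 (mean 1.15 ± 0.251, SD, n = 4). All 4 lay above all 7 controls; of all probe sets, 1.41% did not overlap between these groups. The difference was 0.720 ± 0.116 (95% interval 0.482 to 0.958, limma adjusted p = 0.000791). In whole liver, more cells that express a gene and more of its RNA per cell cannot be told apart.

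The Epcam difference kept its direction within each animal series, without a call. Below 3000, 1 treated animal stood 0.418 above 4 controls (adjusted p = 0.226), and above 3000, 3 treated animals stood 0.767 above 3 controls (adjusted p = 0.151). With the series as a block it was 0.645 (adjusted p = 0.00287), and with adjustment for the 3′–5′ difference 0.706 (adjusted p = 0.000787). Among arrays with a GAPDH difference above 0.9 it was 0.808 (3 against 4 arrays, adjusted p = 0.0508), and among the others 0.405 (1 against 3 arrays, adjusted p = 0.122). Leaving out any 1 of the 11 arrays kept the call, with differences from 0.648 to 0.838.

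**Figure D1:**
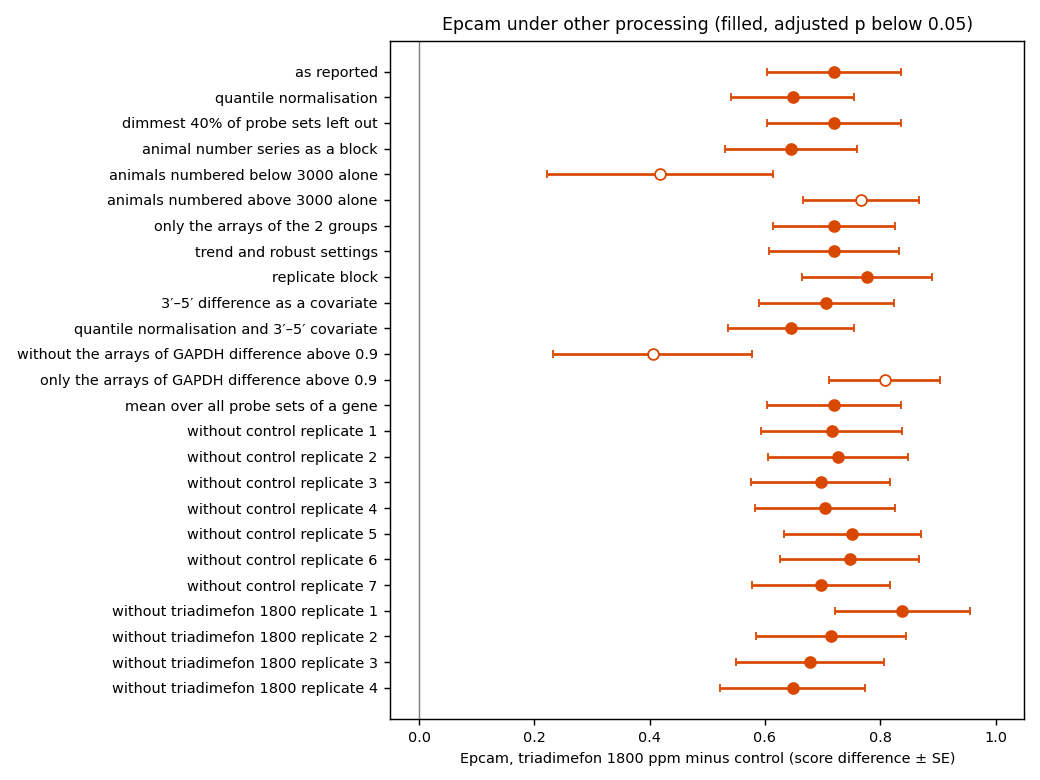
Difference in Epcam score between triadimefon 1800 ppm and control (horizontal axis, score units) as reported and under 24 other settings; whiskers are ± 1 standard error and filled points have an adjusted p below 0.05. All points lie above 0, from 0.405 to 0.838, and 20 of the 24 other settings are filled.

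In the other 5 treated groups Epcam did not pass the test. Propiconazole at 2500 ppm came closest, with scores of 0.810, 0.607, 0.593 and 1.02, of which 2 of 4 exceeded every control. Its difference from control was 0.323 ± 0.116 (95% interval 0.0846 to 0.561, adjusted p = 0.157). At myclobutanil 2000 ppm the scores ran from 0.5262 to 0.750 (mean 0.606 ± 0.0991, SD, n = 4) and the difference was 0.171 ± 0.116 (adjusted p = 0.350). At myclobutanil 500 ppm they spread from 0.220 to 0.993 (mean 0.575 ± 0.292, SD, n = 5), a range that holds all controls. At triadimefon 500 ppm they read 0.487, 0.609, 0.555, 0.565 and 0.628, a difference of 0.134 ± 0.108 (adjusted p = 0.394), and at propiconazole 500 ppm 0.612, 0.229 and 0.672, a difference of 0.0702 ± 0.128 (adjusted p = 0.840). By mean the groups ranked triadimefon 1800 ppm, propiconazole 2500 ppm, myclobutanil 2000 ppm, myclobutanil 500 ppm, triadimefon 500 ppm, propiconazole 500 ppm and control. Each neighbouring pair in that order overlapped; the first pair overlaps because 2 propiconazole arrays (0.810 and 1.02) exceeded the lowest triadimefon array (0.798).

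**Figure D2:**
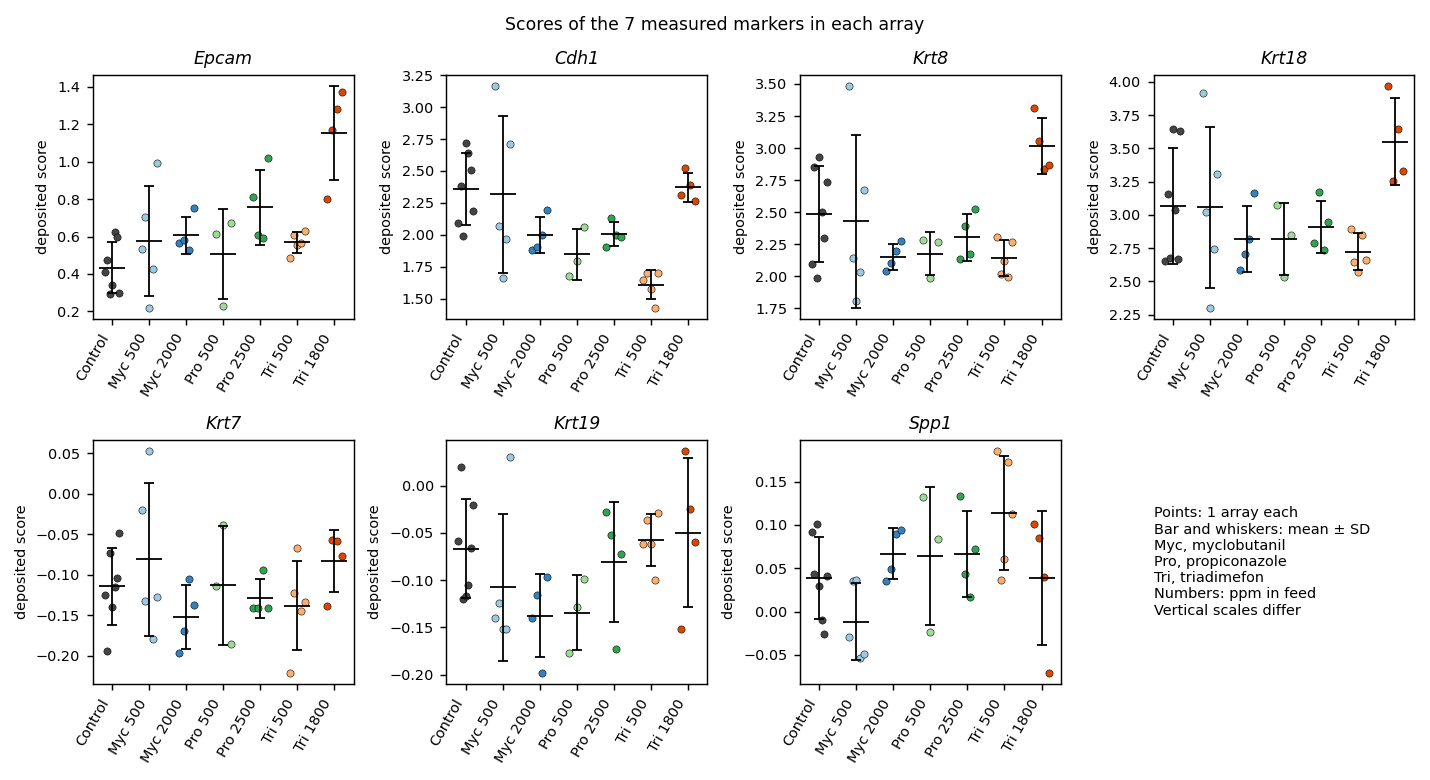
Deposited score (vertical axis, score units, a different scale in each panel) of the 7 measured markers in each of 32 arrays by group, with bars for the mean and whiskers for ± 1 SD. The 4 Epcam points at triadimefon 1800 ppm (0.798 to 1.37) sit above all controls (0.294 to 0.624), and the 5 Cdh1 points at triadimefon 500 ppm (1.43 to 1.70) sit below all controls (1.99 to 2.72).

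Cdh1 read lower at triadimefon 500 ppm, without passing the test: no member of 7 was called there, where 0.00966% of all probe sets were. The controls scored 2.09, 2.39, 1.99, 2.72, 2.64, 2.51 and 2.19 (mean 2.36 ± 0.280, SD, n = 7). The 5 arrays of triadimefon 500 ppm scored 1.65, 1.70, 1.57, 1.43 and 1.70 (mean 1.61 ± 0.114, SD, n = 5) and all lay below the lowest control; 2.34% of all probe sets did not overlap in this comparison. The difference was -0.750 ± 0.168 (95% interval -1.10 to -0.405, adjusted p = 0.0600). It was -0.385 (adjusted p = 0.9996) with adjustment for the 3′–5′ difference and -0.545 (adjusted p = 0.162) without the arrays of high GAPDH difference. The second probe set of Cdh1 gave -0.0693 ± 0.0442 (adjusted p = 0.283).

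At triadimefon 1800 ppm the 4 Cdh1 scores, 2.31, 2.52, 2.39 and 2.27, lay inside the control range (difference 0.0113 ± 0.180, 95% interval -0.358 to 0.381, adjusted p = 0.993). Means were 1.85 ± 0.197 at propiconazole 500 ppm (SD, n = 3), 2.01 ± 0.0915 at propiconazole 2500 ppm (SD, n = 4), 1.99 ± 0.141 at myclobutanil 2000 ppm (SD, n = 4) and 2.32 ± 0.612 at myclobutanil 500 ppm (SD, n = 5). The differences from control of the first 3 were -0.515, -0.355 and -0.366, with adjusted p of 0.536, 0.266 and 0.210. The widest spread was at myclobutanil 500 ppm, from 1.66 to 3.17, where the 2 arrays of high GAPDH difference gave the 2 highest Cdh1 scores, 3.17 and 2.71.

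Krt8 and Krt18, the keratin pair of hepatocytes, had their highest group means at triadimefon 1800 ppm and did not pass the test against the controls there. Krt8 scored 2.10, 2.86, 1.99, 2.93, 2.51, 2.30 and 2.73 in controls (mean 2.49 ± 0.372, SD, n = 7) and 3.31, 3.05, 2.84 and 2.87 at triadimefon 1800 ppm (mean 3.02 ± 0.219, SD, n = 4). The groups overlapped, and the difference was 0.532 ± 0.211 (95% interval 0.0988 to 0.964, adjusted p = 0.298). Krt18 scored 2.65, 3.16, 2.68, 3.64, 3.04, 2.67 and 3.63 in controls (mean 3.07 ± 0.436, SD, n = 7) and 3.97, 3.25, 3.64 and 3.33 at triadimefon 1800 ppm (mean 3.55 ± 0.328, SD, n = 4). Its difference was 0.482 ± 0.224 (95% interval 0.0211 to 0.942, adjusted p = 0.429). Without the arrays of high GAPDH difference, which leaves 1 treated array against 3 controls, the differences were 1.0003 for Krt8 and 1.14 for Krt18. The array standard deviation of that treated array was 0.919, against 0.766, 0.823 and 0.759 in those controls. With quantile normalisation of all arrays the differences were 0.353 for Krt8 (limma adjusted p = 0.102) and 0.306 for Krt18 (limma adjusted p = 0.179). In the other 5 treated groups both read below the controls by mean, with differences from -0.345 to -0.0594 for Krt8 and from -0.343 to -0.00987 for Krt18, and none passed. This direction turned with adjustment for the 3′–5′ difference, where Krt18 read above the controls in all 5 groups and Krt8 in 4 of 5, without a call. At triadimefon 500 ppm the adjusted differences were 0.0815 for Krt8 and 0.0187 for Krt18.

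Krt7, Krt19 and Spp1 stayed in a narrow band in all groups, and none passed the test in any of the 12 comparisons. Krt7 scores ran from -0.221 to 0.0528 over the 32 arrays, those of Krt19 from -0.198 to 0.0368 and those of Spp1 from -0.0710 to 0.186. The SD within groups was 0.0576, 0.0578 and 0.0564, close to the median of 0.0680 over all probe sets. At triadimefon 1800 ppm the differences from control were 0.0316 ± 0.0363 for Krt7, 0.0170 ± 0.0364 for Krt19 and 0.000261 ± 0.0356 for Spp1. These intervals reached no further than 0.106 from 0. The 2 bile duct keratins gave no call in the group where Epcam did. Whether the scores of these 3 probe sets lie above the array's background cannot be read from the deposited table.

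The highest mean of Spp1 was at triadimefon 500 ppm, where the arrays read 0.0366 to 0.186 (mean 0.114 ± 0.0661, SD, n = 5) against -0.0255 to 0.101 in controls (mean 0.0387 ± 0.0470, SD, n = 7). The ranges overlapped (difference 0.0751 ± 0.0333, adjusted p = 0.140). Its lowest mean, -0.0118 ± 0.0448 (SD, n = 5), was at myclobutanil 500 ppm. The lowest Krt7 and Krt19 means, -0.152 ± 0.0394 and -0.138 ± 0.0440 (SD, n = 4), were both at myclobutanil 2000 ppm, with differences from control of -0.0375 (adjusted p = 0.522) and -0.0710 (adjusted p = 0.226).

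No member was called against the controls at myclobutanil 500 ppm (background 0%), myclobutanil 2000 ppm (0.0644%), propiconazole 500 ppm (0%) or propiconazole 2500 ppm (0.254%). At an unadjusted p below 0.05 limma gave 0, 0, 1 (Cdh1) and 1 (Epcam) of 7 members in these 4 comparisons, 2 (Cdh1 and Spp1) at triadimefon 500 ppm and 3 (Epcam, Krt8 and Krt18) at triadimefon 1800 ppm. The shares of all probe sets at that p were 4.13%, 24.2%, 9.23%, 19.9%, 29.3% and 10.8% in the same order, so the count at triadimefon 500 ppm lay at the background. All 7 differences were above 0 at triadimefon 1800 ppm, with a median of 0.0316 against 0.0185 over all probe sets. Those of Spp1 (0.000261 ± 0.0356) and Cdh1 (0.0113 ± 0.180) were close to 0. Above 0 were also 10 of 11 hepatocyte genes and 8 of 8 Kupffer cell genes, but 1 of 6 testis genes. The share of all probe sets above 0 was not counted. The comparisons with the controls share the 7 control arrays.

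**Figure D3:**
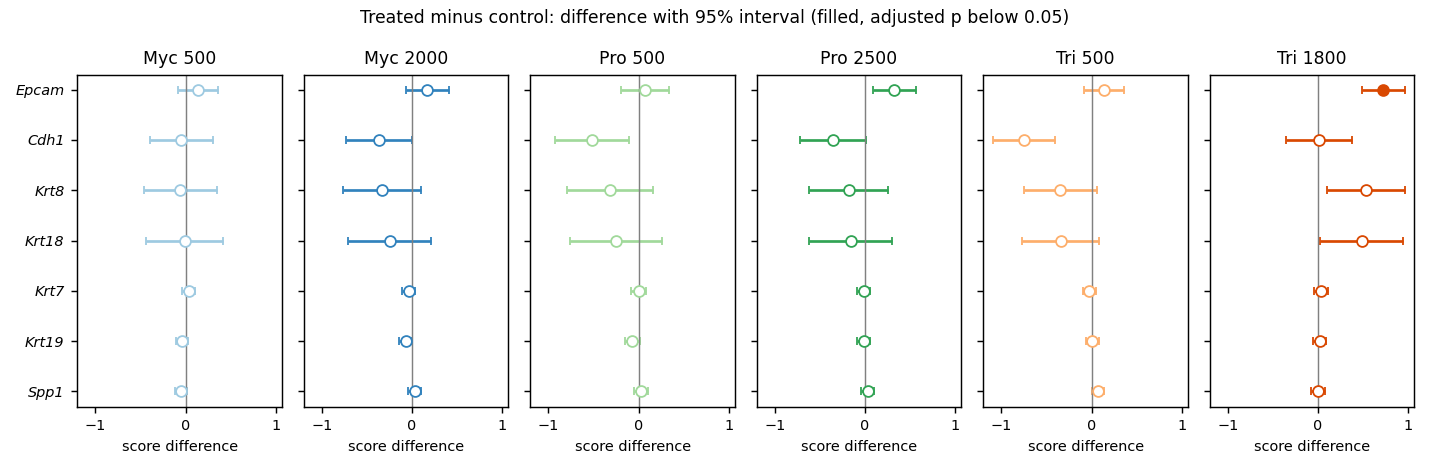
Difference in score between each treated group and the controls (horizontal axis, score units) for the 7 measured markers, with 95% intervals; filled points have an adjusted p below 0.05. The 1 filled point is Epcam at triadimefon 1800 ppm (0.720); the Krt7, Krt19 and Spp1 points stay close to 0 in all 6 panels.

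Between the levels of triadimefon, 4 of 7 members were called, all higher at 1800 than at 500 ppm, against 24.8% of all probe sets. Krt8 differed by 0.876 ± 0.226 (adjusted p = 0.0107) and read 1.99 to 2.31 at 500 ppm against 2.84 to 3.31 at 1800 ppm. Krt18 differed by 0.825 ± 0.240 (adjusted p = 0.0186), Cdh1 by 0.762 ± 0.193 (adjusted p = 0.0100) and Epcam by 0.585 ± 0.124 (adjusted p = 0.00400). None of the 4 overlapped between the levels, as for 24.1% of all probe sets, and the members' median difference was 0.585 against 0.0635 over all probe sets. A median of this size was not particular to the members. It was 0.834 over 11 hepatocyte genes and 0.528 over 8 Kupffer cell genes, but 0.203 over 10 stellate cell genes and 0.233 over 7 endothelial genes.

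These 4 calls did not hold under every setting. The 3′–5′ difference, 0.469 to 0.577 at 500 ppm and 1.16 to 1.86 at 1800 ppm, did not overlap between the levels either. With it as a covariate none of the 4 was called, and the differences were 0.345 for Krt8, 0.374 for Krt18, 0.307 for Cdh1 and 0.518 for Epcam (adjusted p from 0.109 to 0.4931). With the animal series as a block none was called (adjusted p from 0.0645 to 0.112), at differences of 0.944 for Krt8, 0.911 for Krt18, 0.665 for Cdh1 and 0.412 for Epcam, and of the 4 only Krt18 was called among animals below 3000 alone (1.25, 1 against 5 arrays, adjusted p = 0.0368). Without the 3 arrays of high GAPDH difference, 1 array of 1800 ppm against 5, Epcam lost its call (0.230, adjusted p = 0.342) and the other 3 kept theirs. With quantile normalisation Krt18 lost its call (0.335, adjusted p = 0.0540) and Krt8, Cdh1 and Epcam kept theirs at 0.450, 0.437 and 0.443. Without replicate 1 of triadimefon 1800 ppm the adjusted p of Krt18 was 0.0519. The second probe set of Cdh1 differed by 0.118 ± 0.0507 between the levels and was not called (limma adjusted p = 0.0823).

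No member was called between the levels of myclobutanil (background 0%) or of propiconazole (0%). Spp1 gave the smallest unadjusted p between the myclobutanil levels (0.0788 ± 0.0381 higher at 2000 ppm, adjusted p = 0.447). Epcam gave the smallest between the propiconazole levels (0.252 ± 0.141 higher at 2500 ppm, 95% interval -0.0377 to 0.543, adjusted p = 0.99997).

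At the matched level of 500 ppm the 3 compounds were compared in 3 pairs, and no member was called in any (background 0% in each pair). Cdh1 was 0.705 ± 0.182 higher with myclobutanil than with triadimefon (95% interval 0.333 to 1.08, adjusted p = 0.236), and Spp1 was 0.126 lower (95% interval -0.199 to -0.0518, adjusted p = 0.236). Myclobutanil and propiconazole differed in Cdh1 by 0.470 ± 0.210 (95% interval 0.0394 to 0.9001, adjusted p = 0.855). Propiconazole and triadimefon differed in Cdh1 by 0.236 ± 0.210 (95% interval -0.195 to 0.666, adjusted p = 0.9997). For Epcam the 3 intervals ran from -0.234 to 0.247 for myclobutanil against triadimefon, from -0.207 to 0.348 for myclobutanil against propiconazole and from -0.342 to 0.213 for propiconazole against triadimefon. These intervals leave room for differences in either direction, so they do not show that the compounds act alike.

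The permutations shuffled arrays across groups that differ in the 3′–5′ difference. Their p thus does not separate differences between groups from a relation within groups. Over the 32 arrays the members did not move as 1 block with the 3′–5′ difference. Cdh1 followed it (Pearson r = 0.822 and Spearman rho = 0.745, each with permutation p = 1e-05, which 100000 resamples cannot go below, and adjusted p = 0.00014 over 42 tests). So did Krt8 (r = 0.791, permutation adjusted p = 0.00014; rho = 0.615, adjusted p = 0.0021) and Krt18 (r = 0.698, permutation adjusted p = 0.00063; rho = 0.488, adjusted p = 0.0246). Spp1 ran the other way (r = -0.520, permutation adjusted p = 0.0145, and rho = -0.563, adjusted p = 0.00714). Such relations were not particular to the members. Among genes outside the list, Lsm12 (r = 0.914) and Tmx2 (0.859) rose with the 3′–5′ difference and Tas1r3 fell (-0.767). The share of all probe sets with such an r was not counted. For Epcam r was 0.214 (permutation p = 0.238, adjusted p = 0.419) and rho 0.0579 (adjusted p = 0.851).

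Krt7 (r = 0.406, permutation adjusted p = 0.0744; rho = 0.457, adjusted p = 0.0352) and Krt19 (r = 0.274, adjusted p = 0.271; rho = 0.154, adjusted p = 0.573) stood between these. Without the 2 arrays farthest from the median 3′–5′ difference, r was 0.823 for Cdh1, 0.734 for Krt8, 0.573 for Krt18, -0.513 for Spp1 and 0.436 for Epcam. Among the 9 arrays of high GAPDH difference r was 0.433 for Cdh1, 0.679 for Krt8, 0.556 for Krt18 and -0.394 for Epcam (exact permutation adjusted p from 0.132 to 0.497). Among the other 23 it was 0.546 for Cdh1, 0.649 for Krt8, 0.459 for Krt18 and -0.129 for Epcam. Without the 2 farthest of these arrays, replicate 2 of the controls and replicate 1 of triadimefon 1800 ppm, the values were 0.147, -0.313, -0.432 and -0.471. The relation of Krt8 and Krt18 within this set thus rests on those 2 arrays, and that of Cdh1 largely does.

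**Figure D4:**
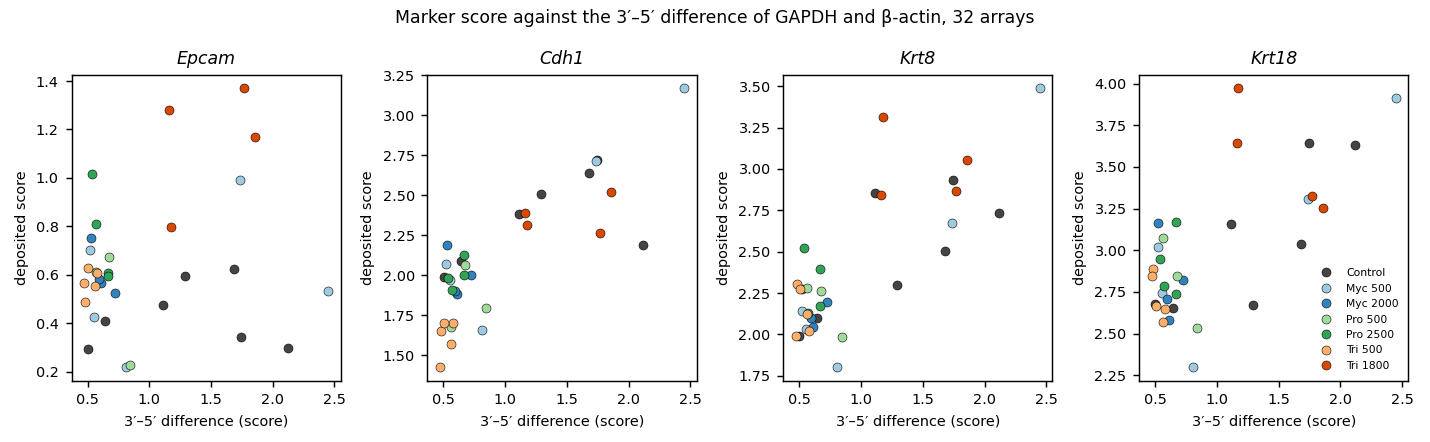
Score of 4 markers (vertical axes, score units) against the mean 3′–5′ difference of the GAPDH and β-actin control probe sets (horizontal axes, score units), 1 point per array in 32 arrays, coloured by group. Cdh1, Krt8 and Krt18 rise with the 3′–5′ difference (r = 0.822, 0.791 and 0.698). For Epcam r was 0.214 (permutation adjusted p = 0.419), and 0.436 without the 2 arrays farthest from the median 3′–5′ difference. The 4 Epcam points at triadimefon 1800 ppm (0.798 to 1.37) lie above all controls (0.294 to 0.624).

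Among the 21 pairs of members Krt8 and Krt18 moved most closely together (r = 0.913, rho = 0.874, permutation p = 1e-05 and adjusted p = 8.4e-05 over 42 tests for each). The pair kept r = 0.865 without the 2 arrays of most distant Krt8 score, 0.866 around the group means and 0.824 after the 3′–5′ difference was regressed out. It was 0.812 in the 9 arrays of high GAPDH difference and 0.888 in the other 23. Such an r was not particular to the pair. Genes outside the list followed each keratin more closely than its partner did, such as Nckap1 for Krt8 (0.952) and Rad23b for Krt18 (0.967). The part of the spread of scores within each array in these r was not tested. Cdh1 followed Krt8 (r = 0.779, rho = 0.745) and Krt18 (r = 0.700, rho = 0.703), all with a permutation adjusted p of 0.00014 or below. After the 3′–5′ difference was regressed out these fell to 0.370 and 0.311. Spp1 and Cdh1 ran in opposite directions (r = -0.529, permutation adjusted p = 0.0104, and rho = -0.450, adjusted p = 0.0513). After the same regression their r was -0.209. Epcam was not called with any other member; its highest r was 0.438, with Krt8 (rho = 0.442, permutation adjusted p = 0.0513 for each).

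**Figure D5:**
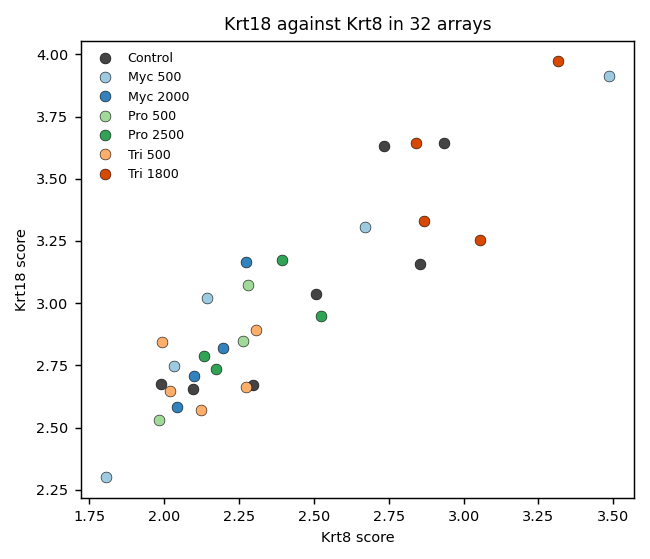
Krt18 score (vertical axis) against Krt8 score (horizontal axis) in 32 arrays, coloured by group. The points follow 1 rising band (r = 0.913) in which arrays of triadimefon 1800 ppm, some controls and 2 arrays of myclobutanil 500 ppm take the upper end.

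By Pearson r over the 32 arrays, among 14210 other genes, the patterns most like Epcam were those of Manba (0.876), Acsl3 (0.868) and Tes (0.819). Manba encodes the lysosomal beta-mannosidase and Acsl3 a long-chain acyl-CoA synthetase. After the 3′–5′ difference was regressed out these r were 0.870, 0.884 and 0.818. Those most like Krt8 were Nckap1 (0.952), Rpn1 (0.951) and Tmx2 (0.951), and those most like Krt18 were Rad23b (0.967), Cltc (0.967) and Rpl3 (0.963). Those most like Cdh1 were Ptgr1 (0.890), Lsm12 (0.880) and Nucb2 (0.875), which fell to 0.691, 0.560 and 0.656 after the same regression. Bri3bp, Stk36 and Asb14 stood nearest to Krt7 (0.838, 0.837 and 0.837), Cetn4, Calr3 and Fabp4 nearest to Krt19 (0.653, 0.643 and 0.602), and Adam9, Pus3 and Tas1r3 nearest to Spp1 (0.729, 0.699 and 0.668). These are descriptions of arrays that share groups and levels of the 3′–5′ difference.

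Of a wider list of 30 bile duct and epithelial genes, 25 had a probe set, and 1 was called against the controls in 1 of the 6 treated groups. That gene was Ggt1, which encodes gamma-glutamyl transferase, a membrane enzyme of glutathione breakdown found on bile duct cells. At triadimefon 1800 ppm Ggt1 scored 0.617, 0.929, 0.749 and 1.14 (mean 0.859 ± 0.227, SD, n = 4) against 0.116 to 0.327 in controls (mean 0.231 ± 0.0674, SD, n = 7). The groups did not overlap, as for 1.41% of all probe sets, and the difference was 0.628 ± 0.0870 (95% interval 0.450 to 0.806, limma adjusted p = 0.000118). Of all probe sets, 1.17% were called in this comparison. Unlike Epcam, Ggt1 was not examined under other settings. As for Epcam, the second highest mean of Ggt1 was at propiconazole 2500 ppm (0.503 ± 0.193, SD, n = 4), which was not called. The list's median difference at triadimefon 1800 ppm was 0.0219 against 0.0185 over all probe sets, and 17 of 25 differences were above 0. Between the levels of triadimefon 6 of 25 were higher at 1800 ppm and none lower: Anxa4, Cftr, Cldn3, Cldn4, Ggt1 and Sox4, from 0.0889 (Cftr) to 0.596 (Ggt1). The share was near the 24.8% of all probe sets called there, and with adjustment for the 3′–5′ difference the calls over all probe sets went from 7690 to 88.

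Markers of stellate cells were called beside Epcam at triadimefon 1800 ppm, and those of 5 other cell types were not; their part in the Epcam difference was not tested. Of all probe sets, 1.17% were called in this comparison and 10.8% had an unadjusted p below 0.05. Of 10 stellate cell genes 2 were called, Col1a2 (0.313 ± 0.0782, adjusted p = 0.0410) and Rgs5 (0.323 ± 0.0484, adjusted p = 0.000327), and the summed score ran from 6.27 to 7.84 against 4.46 to 5.72 in controls, without overlap. None of 8 Kupffer cell genes was called in limma, though 7 were higher at an unadjusted p below 0.05, and their sum was 10.4 to 13.98 against 7.22 to 11.9, with overlap. None of 11 hepatocyte genes was called, with 0 at an unadjusted p below 0.05 and sums of 42.6 to 54.6 against 38.8 to 49.2. Still, 10 of the 11 differences were above 0, with a median of 0.365 against 0.0185 over all probe sets. The 4 mesothelial genes, none called, summed to -0.522 to 0.314 against -0.205 to 0.221, and the 7 lymphoid genes, none called, to -0.200 to 0.0221 against -0.557 to 0.0566. The 7 endothelial genes, none called, summed to 8.43 to 9.49 against 7.24 to 8.91. The sums of the hepatocyte, mesothelial, lymphoid and endothelial genes overlapped the controls too. Because scores of different probe sets cannot be compared, the marker genes do not check the labelled tissue by their level.

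Transcripts of sperm cells were read in some arrays. The score of Prm1, the sperm protamine, ran from -0.329 to 3.15, and its highest value was in replicate 2 of triadimefon 1800 ppm, while the other 3 arrays of that group read -0.237, -0.253 and -0.329. Without replicate 2 the Epcam difference from control was 0.715 (limma adjusted p = 0.00383). The highest Epcam scores of the group, 1.28 and 1.37, came from arrays of low Prm1, and so did the lowest, 0.798. In other groups the 2 genes moved together in places. At myclobutanil 500 ppm the 2 arrays of highest Prm1 (2.68 and 2.42) had the 2 highest Epcam scores (0.993 and 0.703), and the array of lowest Prm1 (0.960) had the lowest (0.220). At myclobutanil 2000 ppm replicate 5 was highest in both (2.51 and 0.750). Among controls the 2 arrays of lowest Prm1 (-0.263 and -0.271) had the 2 highest Epcam scores (0.624 and 0.596). At triadimefon 500 ppm the array of highest Prm1 (2.15) had an Epcam score of 0.555, in a group range of 0.487 to 0.628. At propiconazole 500 ppm the array of highest Prm1 (1.09) had the lowest Epcam score (0.229). At propiconazole 2500 ppm Prm1 ran from 0.920 to 1.16, and the highest Epcam score (1.02) came with 0.989. The part of sperm transcripts in the Epcam scores was not tested.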

How the data were processed

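Liver RNA of 32 rats in 7 groups was measured on single-colour Affymetrix arrays. The table deposited by the authors holds a score per probe set and array; its scale, log base and centring, and how it was made, are not stated in the sources used here. It has no detection calls, and precision is limited by the number of arrays. limma had been planned on the assumption of log2 values and was run on these scores as they are. The 57 control probe sets were left out of the tests. Of the other 31042 probe sets, 20826 carry 1 gene symbol in the platform annotation, 436 several and 9780 none. All 7 groups entered 1 limma model (limma 3.58.1, R 4.3.3, version 1.17.8 of the data.table package; lmFit, contrasts, eBayes at defaults; 25 residual degrees of freedom), two-sided, with Benjamini-Hochberg adjustment over all 31042 probe sets within each of 12 comparisons, a threshold of 0.05 and 95% intervals. The pipeline was tested on simulated data. The members and gene lists were chosen with earlier results of these data known. All members were named, with, from the wider biliary list, at most 4 genes called against the controls per comparison (those called between triadimefon levels were added after their values were seen), and the 3 genes of highest r per member. Groups follow the titles, and the series describes its arrays as biological replicates. No 2 arrays held identical values.

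Correlations used 100000 permutations, or all of them in the 9 arrays, in Python (numpy 2.4.6, SciPy 1.17.1). Arrays were shuffled without regard to group, for the pairs of members too. Alternatives were quantile normalisation, a filter on the 40% dimmest probe sets, a block for the animal number series and each series alone, only the 2 groups compared, trend and robust variance, the replicate number as a block, the 3′–5′ difference as a covariate, also after quantile normalisation, arrays chosen by a GAPDH difference above 0.9, the mean of a gene's probe sets, and leaving out each array. Marker lists of pancreas, testis and erythroid cells were also scored. At triadimefon 1800 ppm none of their 6, 6 and 3 measured genes was called against the controls.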

Additional observations from a re-analysis of the deposited data

Results flagged for a closer look

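In 42 combinations of a member and a group of 4 or more arrays, 2 held an array that stood apart from the rest by Dixon's test at the 95% level, about as many as chance gives at 1 in 20 groups. Krt7 read -0.0935 in replicate 3 of propiconazole 2500 ppm, where each of the other 3 arrays read -0.141. Krt19 read 0.0304 in replicate 5 of myclobutanil 500 ppm, where the next highest array read -0.124. Neither gene was called in any of the 12 comparisons, and neither flag touches Epcam, Cdh1, Krt8, Krt18 or Spp1.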

How the results depend on the processing

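Of 252 recounts of called members over the 12 comparisons, 239 stayed within 1.5 times the reported count, 7 were lower and 6 higher. The 239 include every reported count of 0 that stayed 0. Only triadimefon 1800 ppm against control and against 500 ppm had a reported count above 0. The lower and higher counts all lay in the triadimefon comparisons. Taken member by member, 23 values lost a call and 7 gained one. No called difference changed sign. At triadimefon 500 ppm against control the count of 0 became 1 (Cdh1) with quantile normalisation, with only the 2 groups and with trend and robust settings, and ranged from 0 to 1 when single arrays were left out (1 without control replicate 1, adjusted p = 0.0243, or control replicate 3, adjusted p = 0.0143). At triadimefon 1800 ppm against control the count of 1 became 0 in animals below 3000 alone, in animals above 3000 alone and in the arrays of GAPDH difference above 0.9 (a setting chosen after seeing the data). It became 2 (Krt8, 1.0003, and Krt18, 1.14, from a single treated array) without those arrays, and stayed 1 when single arrays were left out. Between the triadimefon levels the count of 4 became 0 with the series block, 1 in animals below 3000, 0 with the 3′–5′ covariate and 0 with that and quantile normalisation, and was 3 to 4 when single arrays were left out. Same-numbered arrays deviated together in some pairs and apart in others (46 pairs, r from -0.666 to 0.596). Whether the numbers carry shared handling was not tested. The replicate block changed no call of a member (Epcam at triadimefon 1800 ppm 0.776, limma adjusted p = 0.000899). Animals above 3000 could be compared alone only for triadimefon 1800 ppm, and the filter on dim probe sets removed Krt7 and Krt19. The cause of these changes was not tested. A lone array was assumed to vary like the other groups.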
